A study of Mus musculus with 6 samples.

Results

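Smooth muscle contractile genes encode the filaments and regulators with which smooth muscle generates force. They were followed in embryonic stem (ES) cells of the mouse and in FLICs, the submitters' name for differentiated cells derived from those ES cells. The genes were taken by name: Acta2, Actg2, Myl9, Myh11, Tpm1, Tpm2, Tagln, Cnn1, Lmod1 and Des. All 10 were present among the 22600 genes of the count table. RNA-seq libraries came from 4 groups of cells with a C57BL/6 background, each cultured for 96 h. Untreated ES cells (2 libraries) and untreated FLICs (1 library) carry the genotype label wild-type. ES cells (2 libraries) and FLICs (1 library) given OHT, a tamoxifen metabolite, for 3 days carry the label TRF2-/-. TRF2 is a telomere-binding protein encoded by Terf2, and the series asks whether pluripotent cells depend on it. The allele or recombinase through which OHT removes TRF2 is not given in the sources used here. No group had OHT with TRF2 kept, so OHT and TRF2 loss cannot be told apart.

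In smooth muscle, myosin filaments built from heavy chains such as MYH11 and light chains such as MYL9 pull on thin filaments of smooth muscle actins (ACTA2, ACTG2) and tropomyosins. Calponin and transgelin bind those thin filaments, leiomodin starts new actin filaments, and desmin is the muscle intermediate filament. Most of the genes are driven by serum response factor (SRF) with its partners myocardin and the myocardin-related factors through a DNA element called the CArG box. ACTA2 and TAGLN are also made by activated fibroblasts and by many cells in culture, whereas MYH11 is the most restricted to smooth muscle.

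Total counts ran from 23534551 to 43965309 per library, at which a count of 0 allows 0.0686 to 0.118 counts per 1000000 (CPM). Those floors, like the count intervals given here, cover counting error only. Terf2 followed the labels, with 554 and 732 counts in untreated ES cells but 9 and 10 under OHT, and 268 counts in FLICs but 5 under OHT. The labels do not say that libraries of 1 group were separate cultures, so p-values reflect the spread between these libraries, which may be technical. The ES cell libraries with OHT stood further apart than the untreated ones. A size rule was used for single libraries: a gene passed if it differed at least 2-fold on the log2(CPM + 1) scale and averaged 1 CPM or more. Between the OHT libraries 3.7% of genes passed it, against 0% between the untreated pair. Each FLICs condition has 1 library, so a test that includes it takes its spread from the ES cell pairs.

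Most of the contractile genes were far higher in FLICs than in ES cells, but not all of them. Without OHT, 8 of the 10 rose (Acta2, Tagln, Actg2, Lmod1, Tpm1, Tpm2, Myl9 and Cnn1), Des fell, and Myh11 was not called by edgeR's quasi-likelihood test at an adjusted p of 0.05. Of all 15535 genes tested in that comparison, 26.2% rose and 28.7% fell. With OHT, 8 were called higher and 1 lower, against 28.4% and 29.3% of all genes. Summed over the 10 genes, the level was 150 and 132 CPM in untreated ES cells and 188 and 233 CPM in ES cells with OHT. It was 10380 CPM in untreated FLICs and 13052 CPM in FLICs with OHT. Most of the ES cell sums was Tpm1, at 121 and 103 CPM untreated and 153 and 171 CPM with OHT. Most of the FLICs sums was Acta2, at 5936 CPM untreated and 7921 CPM with OHT, followed by Tpm1 (2907 and 3176 CPM). The median log2 fold change of the 10 genes without OHT was 4.39, and that of all genes was -0.11. The untreated FLICs library lay above both untreated ES cell libraries for 8 of the 10 (44.2% of all genes) and below both for 2 (50.7%). With OHT these were 8 (43.3%) and 2 (46.1%). All 10 passed the count filter, but Actg2 passed only through its FLICs libraries, so its calls among the 8 carry no weight of their own. In bulk RNA, a change in the share of expressing cells and a change in RNA per cell cannot be told apart.

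**Figure D1:**
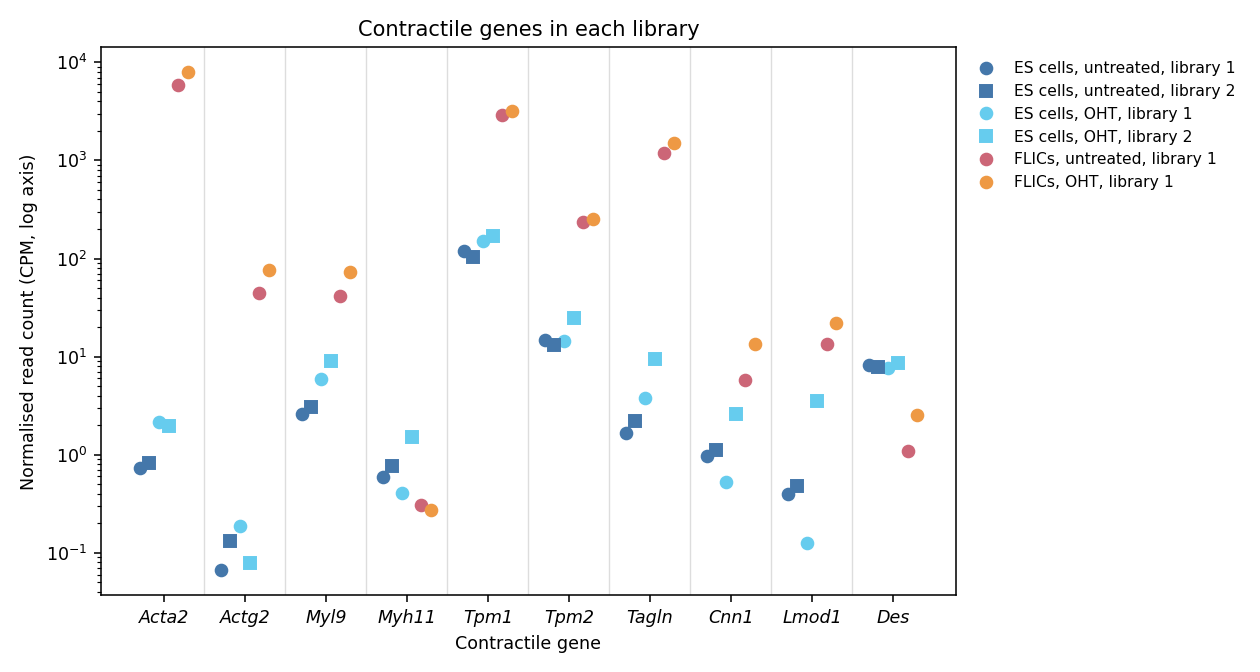
Normalised read counts (CPM, log axis) of the 10 contractile genes, 1 point per library, with colours for cell type and treatment and symbols for the library number. Both FLICs libraries lie above all 4 ES cell libraries for 8 genes, and below them for Myh11 and Des. The share of all genes with such a separation was not computed. Within each treatment, FLICs lay above the ES cell libraries for 44.2% (without OHT) and 43.3% (with OHT) of all genes. They lay below them for 50.7% and 46.1%.

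Acta2 (ENSMUSG00000035783, chromosome 19, 34241090 to 34255590, minus strand, GRCm38), the smooth muscle alpha-actin, showed the largest difference of the 10. Untreated ES cells had 22 and 31 counts of it, ES cells with OHT 69 and 50, untreated FLICs 192311, and OHT-treated FLICs 346242. Scaled to library size, these were 0.728 and 0.825 CPM, 2.15 and 1.96 CPM, 5936 CPM and 7921 CPM. Acta2 was thus scarce, though above the floor, in every ES cell library and was among the most abundant RNAs of both FLICs libraries. The log2 fold change of FLICs over ES cells was 12.89 without OHT (SE 0.25, edgeR adjusted p = 3.9e-05) and 11.91 with OHT. Both values rest on the few ES cell counts, which are uncertain because the assignment of reads shared between actin genes is not known. Acta2 alone took 0.595% of all counts in untreated FLICs and 0.788% with OHT. Per kilobase of the deposited gene length, it ranked 5 among 22600 genes in untreated FLICs and 2 in OHT-treated FLICs.

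Actg2 (ENSMUSG00000059430, chromosome 6, 83512905 to 83536265, minus strand), the gamma-actin of gut and other visceral smooth muscle, also rose in FLICs, from a level near the detection floor. Untreated ES cells had 2 and 5 counts, ES cells with OHT 6 and 2, untreated FLICs 1438, and OHT-treated FLICs 3331. Over the pooled untreated ES cell counts the FLICs value was 430-fold higher (95% counting interval 208 to 1071). Because Actg2 passed the count filter only through FLICs, its call rests on that selection and its p is not given. Per kilobase of length, Actg2 reached 0.732% of the Acta2 level in untreated FLICs and 0.942% with OHT, so Acta2 made up nearly all of the smooth muscle actin RNA.

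The actin genes are close relatives, so stretches of their coding sequences are shown to let their differences be seen. Bases 601 to 630 of the GENCODE M21 coding sequence are given, counted from the start codon on the coding strand, with capitals for bases that differ from Acta2.
Acta2: tccttcgtgactactgccgagcgtgagatt
Acta1: tccttcgtgacCacAgcTgaAcgtgagatt
Actc1: tccttTgtCacCactgcTgaAcgtgaAatt
Actg2: tccttTgtgacCacAgcTgagAgAgaAatt
Actb: AGcttcACCacCacAgcTgagAgGgaAatC
Over the whole coding sequence, identity to Acta2 was 85.4% for Acta1 (skeletal muscle actin), 82.6% for Actc1 (cardiac actin), 84.4% for Actg2 and 83.3% for Actb (cytoplasmic actin). Of the 31-base words in the Acta2 coding sequence, 2.36% also occurred in another gene (Actb or Actg1), and no 75-base word did. The longest run identical to Acta2 was 29 bases in Acta1 and in Actg2, 23 in Actc1 and 47 in Actb. Acta1 was measured at 158 CPM in untreated FLICs and 213 CPM with OHT, or 2.67% and 2.69% of Acta2 per length. Actc1 was at 0.0312% and 0.0396% of Acta2. How reads that fit more than 1 actin gene were assigned is not given in the sources used here. The low Acta1, Actc1 and Actg2 values in FLICs, and the low Acta2 values in ES cells, are therefore uncertain. Beside the 22 and 31 counts of Acta2 in untreated ES cells stood 208855 and 254774 counts of Actb and Actg1 together. The part of shared reads in those Acta2 counts was not tested. In untreated ES cells, Acta1 was above Acta2 per length (427% and 439% of it).

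Upstream sequence was examined because most of these genes share SRF as a known regulator and 8 of the 10 rose in FLICs. The RefSeq promoter table (GRCm38.p6) held 7 of the 10 genes: Acta2, Myl9, Cnn1, Tpm1, Tpm2, Lmod1 and Des. A full CArG box, written as CC, 6 bases that are each A or T, then GG, which covers both strands, was found in the 250 bases before the start for 1 of the 7 (Myl9) and for 1.47% of 32851 promoters. With 1 of the 6 middle bases free, a setting chosen after the data were seen, 2 of 7 (Acta2 and Myl9) and 8.59% of all promoters had a match. TATAAA on the gene's strand was in 0 of 7 and in 7.59% of all. The 4 matches are printed with 10 bases on each side, 5′ to 3′ on the gene's strand, with the match in capitals.
Acta2, 84 bases before the start, chr19:34255438-34255467, minus strand: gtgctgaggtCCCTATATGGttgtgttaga
Acta2, 34 bases before the start, chr19:34255388-34255417, minus strand: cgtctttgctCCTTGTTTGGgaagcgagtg
Myl9, 161 bases before the start, chr2:156775293-156775322, plus strand: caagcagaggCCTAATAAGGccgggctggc
Myl9, 99 bases before the start, chr2:156775355-156775384, plus strand: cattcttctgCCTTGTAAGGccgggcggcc
The match at 161 bases in Myl9 is the full box, and the other 3 each have 1 middle base that is G or C. GENCODE M21 places the start of Acta2 further upstream than RefSeq, so both Acta2 matches lie in its annotated first exon, whereas the Myl9 matches overlap no annotated Myl9 exon. A match describes the letters only, and binding was not measured.

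Of the motor genes, the light chain rose and the heavy chain did not. Myl9 (ENSMUSG00000067818, chromosome 2, 156775420 to 156781658, plus strand), the regulatory light chain whose phosphorylation switches on smooth muscle myosin, was at 2.58 and 3.03 CPM in untreated ES cells and 5.93 and 8.98 CPM with OHT. In FLICs it was at 41.9 CPM untreated and 72.3 CPM with OHT. Every FLICs value exceeded every ES cell value, and the log2 fold change was 3.89 without OHT (SE 0.28, edgeR adjusted p = 0.00021) and 3.28 with OHT. Myh11 (ENSMUSG00000018830, chromosome 16, 14194535 to 14291372, minus strand), the smooth muscle myosin heavy chain, had 18 and 29 counts in untreated ES cells, 13 and 39 in ES cells with OHT, 10 in untreated FLICs and 12 in OHT-treated FLICs. Both FLICs values were below all 4 ES cell values on the CPM scale (0.309 and 0.275 CPM against 0.406 to 1.53 CPM). The fitted log2 fold change without OHT was -1.14 (SE 0.92, edgeR adjusted p = 0.327), and with OHT it was -1.78 (adjusted p = 0.140). Without ES cell OHT library 1 or 2 the untreated comparison was called lower (adjusted p = 0.0224 and 0.0265), and so was the OHT comparison without library 1 (adjusted p = 2.5e-07). At 10 and 12 counts, Myh11 was the scarcest of the 10 genes in FLICs, although its length is the greatest.

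The tropomyosins, which lie along the actin filament, rose from levels that were already well above the floor. Tpm1 (ENSMUSG00000032366, chromosome 9, 67022590 to 67049406, minus strand) was at 121 and 103 CPM in untreated ES cells, 153 and 171 CPM with OHT, 2907 CPM in untreated FLICs and 3176 CPM in FLICs with OHT. Tpm2 (ENSMUSG00000028464, chromosome 4, 43514711 to 43523765, minus strand) was at 14.7 and 13.1 CPM, 14.6 and 24.9 CPM, 236 CPM and 251 CPM in the same order. FLICs and ES cells did not overlap for either gene. The log2 fold change without OHT was 4.70 for Tpm1 (SE 0.20, edgeR adjusted p = 4.5e-05). For Tpm2 it was 4.08 (SE 0.31, edgeR adjusted p = 0.000251). Both genes make muscle and non-muscle isoforms by alternative splicing, which counts per gene do not separate.

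Of the thin filament regulators, Tagln rose most. Tagln (ENSMUSG00000032085, chromosome 9, 45929619 to 45936058, minus strand) encodes transgelin, or SM22, an actin-bundling protein. It was at 1.66 and 2.21 CPM in untreated ES cells, 3.74 and 9.41 CPM with OHT, 1194 CPM in untreated FLICs and 1517 CPM with OHT. The log2 fold change without OHT was 9.26 (SE 0.58, edgeR adjusted p = 0.000133). Cnn1 (ENSMUSG00000001349, chromosome 9, 22099216 to 22109630, plus strand), calponin 1, a brake on the myosin motor, rose much less. It was at 0.960 and 1.12 CPM, 0.530 and 2.63 CPM, 5.80 CPM and 13.4 CPM in the same order. Its log2 fold change was 2.47 without OHT (SE 0.74, edgeR adjusted p = 0.0329) and 3.11 with OHT (adjusted p = 0.0131). The call without OHT was lost when untreated ES cell library 1 (adjusted p = 0.0675) or library 2 (adjusted p = 0.0552) was left out.

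Lmod1 (ENSMUSG00000048096, chromosome 1, 135324807 to 135368065, plus strand), the smooth muscle leiomodin, was the least even of the genes among ES cells. Untreated ES cells had 12 and 18 counts, ES cells with OHT 4 and 91, untreated FLICs 433, and OHT-treated FLICs 966. All ES cell libraries stayed below the FLICs libraries, at 0.125 to 3.57 CPM against 13.4 and 22.1 CPM. The log2 fold change was 4.91 without OHT (SE 1.27, edgeR adjusted p = 0.0200) and 3.63 with OHT (adjusted p = 0.0371). The latter was not called by DESeq2 (adjusted p = 0.129) or when 5 CPM was required in 2 libraries (adjusted p = 0.0505).

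Des (ENSMUSG00000026208, chromosome 1, 75360329 to 75368579, plus strand), desmin, went the other way. It was at 8.28 and 7.85 CPM in untreated ES cells, 7.71 and 8.66 CPM with OHT, 1.08 CPM in untreated FLICs and 2.54 CPM in FLICs with OHT. Both FLICs libraries were below all 4 ES cell libraries. Its log2 fold change was -2.90 without OHT (SE 0.29, edgeR adjusted p = 0.000595), or 7.46-fold lower, and -1.69 with OHT (adjusted p = 0.00278).

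Levels of different genes were compared per kilobase of the deposited length. In untreated FLICs the order was Acta2 (5249 CPM per kilobase), Tpm1 (2039), Tagln (1981), Tpm2 (234), Myl9 (81.1), Actg2 (38.4), Lmod1 (7.49), Cnn1 (6.06), Des (0.768) and Myh11 (0.0517). With OHT, Tagln stood above Tpm1 (2515 against 2228 CPM per kilobase) and Cnn1 above Lmod1 (14.0 against 12.4). With 1 library per condition, neither of these neighbouring pairs has a replicate spread. In untreated ES cells the order was another one. Tpm1 led with 78.3 ± 8.79 CPM per kilobase (SD, n = 2), followed by Tpm2 with 13.8 ± 1.06. Des (5.73 ± 0.213) and Myl9 (5.44 ± 0.620) came next and did not differ beyond their spread. Tagln (3.20 ± 0.650), Cnn1 (1.09 ± 0.117), Acta2 (0.687 ± 0.0606) and Lmod1 (0.245 ± 0.0324) lay lower. Myh11 (0.115 ± 0.0209) and Actg2 (0.0863 ± 0.0409) closed the order, within each other's spread.

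The contractile form was then set against its broadly expressed relatives, as a share of their summed level per length with exact (Clopper-Pearson) 95% intervals. Acta2 was 0.0109% and 0.0127% of Acta2, Actb and Actg1 in untreated ES cells, and OHT libraries of ES cells held 0.0358% and 0.0361%. In FLICs it was 38.2% (38.1 to 38.4) untreated and 44.1% (43.9 to 44.2) with OHT. Alpha-actin was thus a trace of actin RNA in ES cells and a major form in FLICs. How shared actin reads were assigned is not known, so the ES cell shares are uncertain. Tagln was 1.84% and 2.92% of Tagln and Tagln2 in untreated ES cells, 3.86% and 9.20% with OHT, 71.9% in untreated FLICs and 76.7% in OHT-treated FLICs. Tpm1 and Tpm2 were 24.7% and 24.5% of the 4 tropomyosins, 32.1% and 37.5%, 69.5% and 71.7% in the same order. Tagln passed from the minor to the major share of its family, and so did Tpm1 and Tpm2 together. For the tropomyosins this is a share of genes, since counts per gene do not separate muscle from non-muscle isoforms.

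In other families the contractile form stayed minor in FLICs. Myl9 was 3.72% and 4.17% of Myl9 and Myl12a in untreated ES cells, 7.90% and 10.9% with OHT, 13.3% in untreated FLICs and 18.4% in OHT-treated FLICs. Myl12b, the other close relative, was at 0 in all 6 libraries in the row used, so the Myl9 share may be overstated. The 14 relatives matched 15 rows of the count table, and only the first row of each symbol was kept. Which symbol had a further row was not examined, so the 0 of Myl12b is uncertain. Cnn1 was at most 0.891% of the 3 calponins, in FLICs with OHT. Myh11 was 0.0145% (0.00697 to 0.0267) of Myh11, Myh9 and Myh10 in untreated FLICs and 0.0120% with OHT, against 0.0529% to 0.243% over the ES cell libraries. The myosin heavy chain RNA of FLICs was therefore almost wholly of the non-muscle forms. Des was 2.03% and 2.36% of Des and Vim in untreated ES cells and 0.0174% in untreated FLICs, where Vim (vimentin) was at 6173 CPM. Lmod1 went from 0.388% and 0.487% of Lmod1 and Tmod3 to 6.12%.

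**Figure D2:**
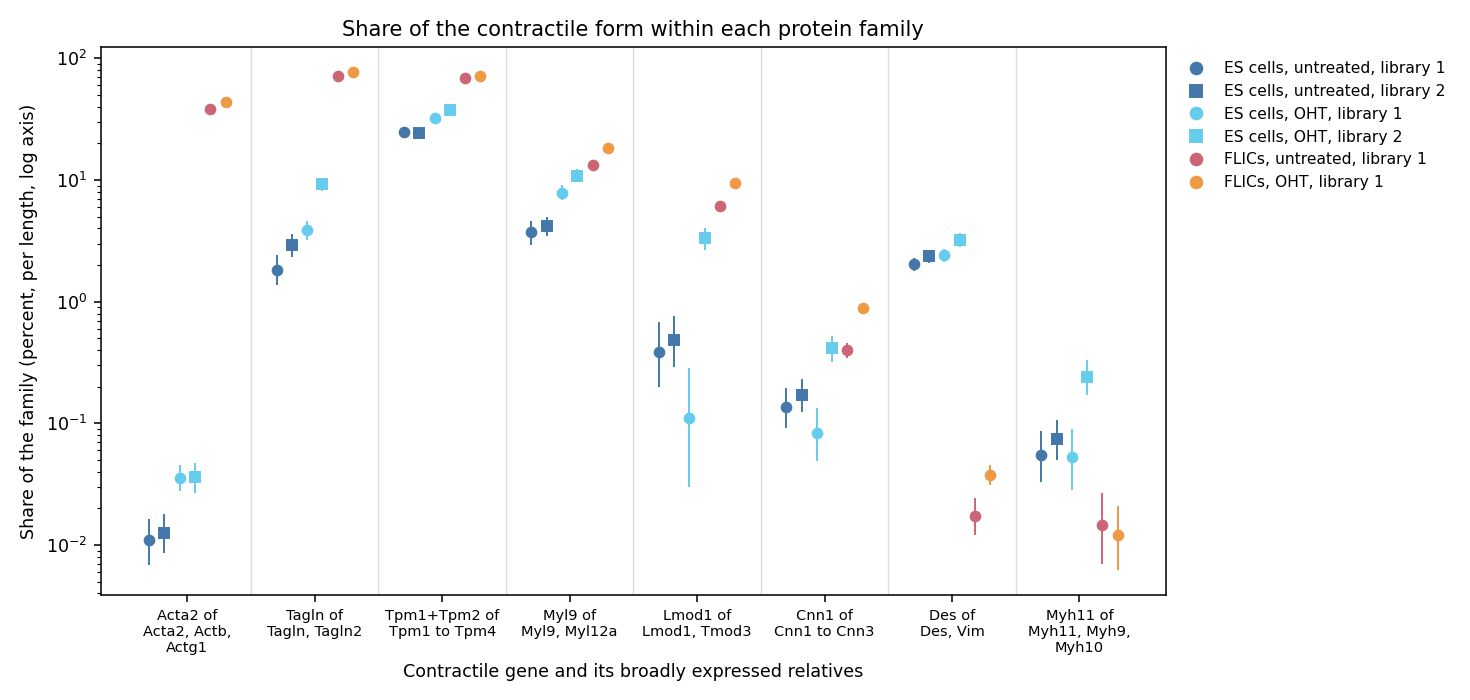
Share of the contractile form within 8 protein families (percent of the summed CPM per length, log axis), 1 point per library, with exact 95% counting intervals as bars. The Acta2, Tagln and tropomyosin shares in FLICs lie between 38.2% and 76.7%, and the Myh11 share in FLICs lies below all ES cell libraries. For Tpm1 and Tpm2, counts per gene do not separate muscle from non-muscle isoforms.

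The non-muscle relatives rose in part. Of the 13 tested, 10 were called higher in untreated FLICs and none fell, against 26.2% and 28.7% of all genes. The median log2 fold change was 1.17. Cnn2 (4.33), Vim (4.10), Tpm4 (3.69) and Tagln2 (2.52) led. Actb, the standard cytoplasmic actin, was at 0.32 (SE 0.19, edgeR adjusted p = 0.205).

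Of 11 regulators of SRF tested, 6 rose and 3 fell in untreated FLICs, where 26.2% of all genes rose and 28.7% fell. The share that fell was near that of all genes. Myocd, the myocardin gene, had 0 and 1 counts in untreated ES cells and 0.218 and 0.588 CPM with OHT. It was at 3.03 CPM in untreated FLICs and 4.62 CPM in FLICs with OHT, and was called higher. Myocd passed the count filter only with the FLICs libraries present. Its call among the 6 thus rests on that selection, and its p is not given. Its ratio of untreated FLICs to the pooled untreated ES cells was 205, with a wide 95% counting interval of 36.0 to 8180. Gata6, a transcription factor of smooth muscle and endoderm, rose by 6.75 on the log2 scale, from 6 and 2 counts in untreated ES cells. Csrp1, a LIM protein partner of SRF, rose by 2.46 on that scale. Klf4, a pluripotency factor that represses contractile genes, fell by 4.21, and Hey2, a Notch effector, was called lower from at most 0.452 CPM in untreated ES cells to a count of 0 in untreated FLICs. Srf itself differed by 0.93 (SE 0.16, edgeR adjusted p = 0.0044), from 68.7 and 66.1 CPM to 129 CPM.

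Genes that control contraction showed 5 rises and 1 fall among 13 tested. For this list and the next ones, the shares over all genes were 26.2% higher and 28.7% lower. The rises were in Ednra (endothelin receptor), Cacna1c (L-type calcium channel), Prkg1 (cGMP-dependent kinase), Cald1 (caldesmon) and Mylk (myosin light chain kinase). Ednra was 111-fold higher (95% counting interval 30.0 to 928), from 2 pooled counts. Log2 fold changes were 4.52 for Cald1, 4.29 for Mylk and -1.51 for Itpr1, a calcium release channel. From few untreated ES cell counts, they were 6.41 for Cacna1c (5 and 5 counts) and 6.09 for Prkg1 (4 and 3 counts). Kcnmb1, a potassium channel subunit of smooth muscle, had a count of 0 in both FLICs libraries, which allows up to 0.0926 CPM untreated and 0.0686 CPM with OHT. Smtn (smoothelin) was at 0.53 (SE 0.20, edgeR adjusted p = 0.070). Of 18 adhesion and cytoskeletal genes, 12 rose and none fell. Filip1l (8.34), Zyx (zyxin, 4.11) and Flna (filamin A, 2.89) were among them, and Pgm5 was called from 0 counts in untreated ES cells to 1.39 CPM. Of 14 genes of the TGF-beta pathway, a known inducer of Acta2 and Tagln, 8 rose and 1 fell. Tgfb3 (840-fold with a 95% counting interval of 287 to 4078, from 3 pooled counts), Tgfb2 (6.26), Ltbp1 (5.98), Tgfbr2 (5.85) and Ltbp2 (4.19) led, and Smad7, an inhibitor, fell by 0.93. In these lists Pgm5, Ednra, Prkg1, Myocd and Tgfb3 passed the count filter only with the FLICs libraries present, so their calls rest on that selection.

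**Figure D3:**
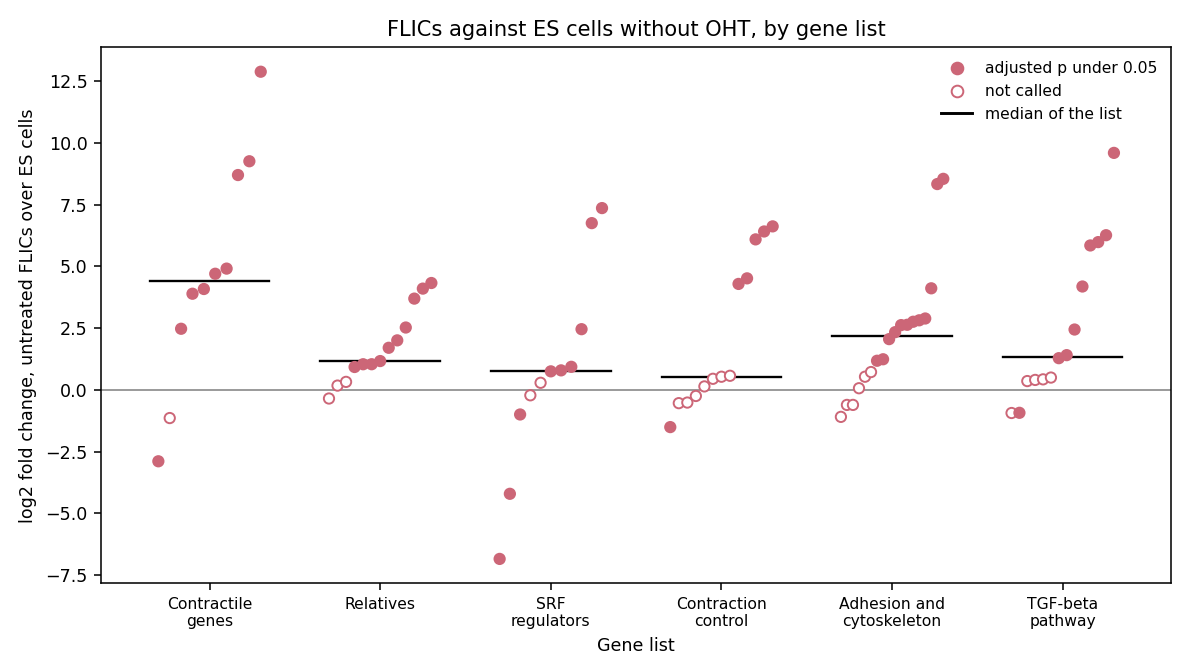
Fitted log2 fold change of untreated FLICs over untreated ES cells for the contractile genes, their broadly expressed relatives and 4 regulatory lists, 1 point per gene, filled where edgeR's adjusted p was under 0.05, with the list median as a bar. The contractile genes reach from -2.90 (Des) to 12.89 (Acta2), with a median of 4.39.

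Markers of other cell types moved between ES cells and FLICs as well. In this comparison without OHT, 26.2% of all genes rose and 28.7% fell. Of 10 fibroblast markers tested, 8 rose and 2 fell, 5 of the 8 having passed the filter only with FLICs present. The summed level of the list went from 1893 and 1939 CPM in untreated ES cells to 5884 CPM in untreated FLICs, with Lum and Fap at 0. Most of that sum was Fn1, at 1884 and 1930 CPM in untreated ES cells and 4763 CPM in untreated FLICs. Of 7 pericyte markers, 4 rose, 2 of them passing the filter only with FLICs present, and none fell (122 and 131 CPM to 300.2 CPM, Abcc9 at 0). Of 16 striated muscle markers, 5 rose, 1 of them (Actc1) passing the filter only with FLICs present, and 7 fell. The sum of that list went from 392 and 412 CPM, with Mylpf at 289 and 300.1 CPM, to 189 CPM, with Acta1 at 158 CPM. The myogenic factors Myod1, Myog and Myf5 had 0 counts in both FLICs libraries. Endothelial markers had 0 rises and 4 falls among 7 (129 and 157 CPM to 2.72 CPM, Tie1 and Erg at 0). Pecam1 alone was at 116 and 140 CPM in untreated ES cells. All 8 pluripotency markers fell (3818 and 3962 CPM to 105 CPM). The part of other cell types in the contractile gene levels was not tested.

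Whether OHT changed the 10 genes in ES cells depended on the test. The edgeR test called 0 of 10, against 0.534% of all 15535 genes, while 4 of the 10 (Acta2, Tagln, Myl9 and Tpm1) had an unadjusted p under 0.05, against 18.3% of all genes. The 4 were called by DESeq2, among 371 genes in all. Without a count filter, edgeR called Acta2 and Myl9 (adjusted p = 0.0379 and 0.0433), among 262 genes in all. With the replicate number as a block, edgeR called Acta2, Tagln and Myl9 (adjusted p = 0.0057, 0.00067 and 0.00089), among 1206 genes in all. The labels do not state a pairing. For these 4 genes both OHT libraries were above both untreated ones, a separation seen for 25.2% of all genes. The 10 fitted values were all above 0, as were those of 7568 of all 15535 genes. The median of the 10 was 0.55 against -0.01 for all genes. However, 5 of the 10 (Actg2, Des, Cnn1, Myh11 and Lmod1) changed sign when 1 library was left out. Acta2 averaged 0.777 ± 0.0685 CPM untreated and 2.06 ± 0.136 CPM with OHT (SD, n = 2), and its fitted log2 difference was 1.40 (SE 0.21, edgeR adjusted p = 0.0678). For Myl9 the means were 2.81 ± 0.320 and 7.45 ± 2.16 CPM, and the log2 difference was 1.40 (SE 0.25, edgeR adjusted p = 0.0916). The spread of the OHT libraries was wider for Tagln, with 1.93 ± 0.392 and 6.58 ± 4.01 CPM and a log2 difference of 1.74 (SE 0.46, edgeR adjusted p = 0.160). Tpm1 differed by 0.54 (SE 0.16, edgeR adjusted p = 0.188). Even with OHT, Acta2 in ES cells was at 2.15 CPM at most, against 5936 CPM in untreated FLICs.

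The ES cell libraries with OHT differed from each other in several contractile genes. Library 2 was above library 1 by 28.6-fold for Lmod1 (95% counting interval 10.8 to 107), 4.95-fold for Cnn1 and 2.51-fold for Tagln (2.01 to 3.16). Of the 8 contractile genes that averaged 1 CPM or more, 3 passed the size rule upward in library 2, as did 3.32% of all genes. Acta2 (0.911-fold) and Des (1.12-fold) were close to equal. Between the untreated libraries none of 6 genes passed the rule. The OHT values of Lmod1, Cnn1, Myh11, Tpm2, Actg2 and Des overlapped the untreated ones, with log2 fold changes of 2.01, 0.57, 0.47, 0.50, 0.41 and 0.02. Without OHT library 1, the edgeR test called 8 of the 10 genes higher, and over all genes 3053 higher and 3112 lower. Without OHT library 2 it called 4 higher (Acta2, Tagln, Myl9 and Tpm1) and Lmod1 lower, and over all genes 2266 higher and 2116 lower. Calls thus became frequent across all genes in both fits. In the fit to all libraries, 7568 of 15535 genes had values above 0. Of the striated muscle markers, 16 of 16 did, with a median of 0.58 and 0 calls. Their sums overlapped (363 and 510 CPM with OHT, 392 and 412 CPM untreated). For fibroblast markers 8 of 10 were above 0 with a median of 0.51 and 0 calls. The part of such markers in the contractile gene values was not tested.

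In FLICs, OHT could only be described. Of the 9 contractile genes that averaged 1 CPM or more, 9 were higher with OHT, as were 56.4% of all 11789 such genes. Cnn1 was the one past 2-fold on the log2(CPM + 1) scale, where 0.424% of all genes were. The ratio of OHT to untreated was 2.35 for Des (95% counting interval 1.59 to 3.54), 2.31 for Cnn1 (1.95 to 2.73), 1.73 for Myl9 (1.62 to 1.84), 1.72 for Actg2 (1.61 to 1.83) and 1.65 for Lmod1 (1.47 to 1.86). Acta2 (1.33) and Tagln (1.27) differed less, and Tpm1 (1.09) and Tpm2 (1.07) least. The gene with the fewest counts, Myh11, gave 0.889 (0.352 to 2.30). The median difference of the 9 genes was 0.69 on the log2(CPM + 1) scale, against 0.03 for all genes and 0.05 for the 13 relatives. For scale, 7 of 8 contractile genes differed in 1 direction between the ES cell OHT libraries, which share a condition, with a median of 0.63, and 49.7% of all genes were higher in that direction. Fibroblast markers moved alike between the FLICs libraries: 7 of 8 were higher with OHT, with a median of 0.63. Their sum went from 5884 to 8632 CPM, of which Fn1 alone was 4763 and 6672 CPM. Pluripotency markers summed to 105 CPM without and 65.0 CPM with OHT. Their part in the differences was not tested.

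**Figure D4:**
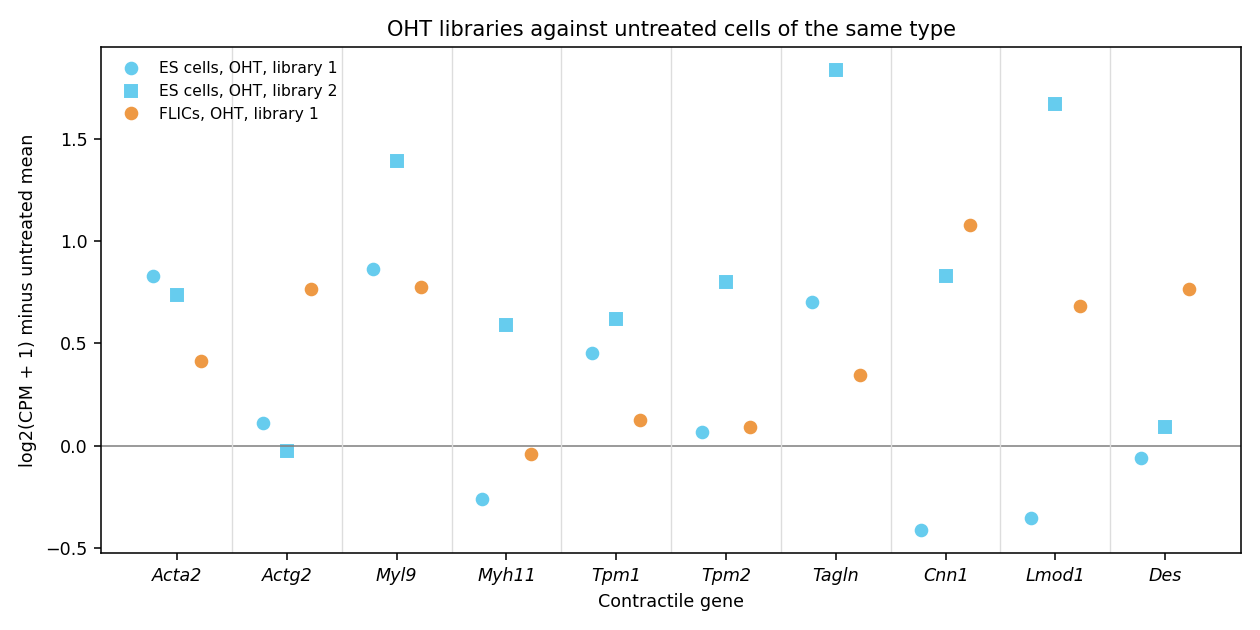
Difference of each OHT library from the mean of the untreated libraries of the same cell type, on the log2(CPM + 1) scale, for the 10 contractile genes. The ES cell libraries lie apart for Lmod1 (-0.35 and 1.67), Cnn1 (-0.41 and 0.83) and Tagln (0.70 and 1.83), and the FLICs library is above 0 for 9 genes and at -0.04 for Myh11.

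Whether the OHT difference itself differed between FLICs and ES cells was tested as an interaction. The edgeR test called 0 of 10 contractile genes and 0% of all genes. At an unadjusted p under 0.05 it gave 2 of the 10 (Acta2 and Des), against 6.8% of all genes, and DESeq2 called 0 of the 10 and 20 genes in all. The estimate was -0.98 for Acta2 and 1.21 for Des (edgeR adjusted p = 0.649 for each). Leaving out 1 ES cell OHT library gave calls in either direction: 1 higher and 4 lower without library 1, and 3 higher and 1 lower without library 2. Over all genes these fits called 1801 higher and 1003 lower, and 1304 higher and 743 lower. The Lmod1 estimate then went from -2.28 (adjusted p = 1.5e-07) without library 1 to 2.49 (adjusted p = 0.00364) without library 2.

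Genes with the pattern most like the median contractile gene were found by the Euclidean distance between gene-centred log2(CPM + 1) profiles over the 6 libraries, among 14729 candidates. The nearest were Arhgef28 (0.268), B2m (0.334), Il13ra1 (0.375), Clic1 (0.380), Serpinb9 (0.466), Gpx8 (0.469), Cdkn2b (0.494) and Cfap43 (0.506). Arhgef28 was at 0.497 and 0.825 CPM in untreated ES cells, 0.780 and 2.23 CPM with OHT, and at 19.2 CPM in untreated and 26.2 CPM in OHT-treated FLICs. The contractile genes themselves ranged from 0.405 (Tpm2) to 9.13 (Acta2) from that median, so Acta2 was far from the typical profile of its own list.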

How the data were processed

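The deposited table holds raw read counts, in whole numbers, of each gene in 6 libraries, and a gene length, per the file headers. Salmon, DESeq2 and GRCm38 appear in the submitters' processing notes with no version or role. The libraries were made with a stranded total RNA kit, per the labels' protocols. Neither the annotation nor the handling of shared reads is given in the sources used here. Among the lengths, 77.6% were multiples of 3, so they are treated as coding lengths. Symbols matched for 22509 genes and not for 91.

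The counts were fitted with edgeR 4.0.16 (limma 3.58.1, R 4.3.3): filterByExpr by group (15535 genes), TMM scaling, 1 mean per group, quasi-likelihood tests, and Benjamini-Hochberg adjustment over all genes tested. The fit had 2 residual degrees of freedom. CPM are TMM-scaled. OHT in FLICs (1 library each) was described by log2(CPM + 1). The procedure was tested on simulated data. Alternatives included RLE scaling, DESeq2 1.42.0, other filters, a replicate block and leaving out libraries. Positions are from GENCODE M21, promoters from RefSeq. The 10 genes, the lists and the rule for named genes (all 10, Terf2, up to 5 called genes a list with the largest change, and the 8 nearest patterns) were chosen with earlier results of these data known. Genes named outside that rule (Actb, Srf, Smtn, Itpr1, Kcnmb1, Smad7, Acta1, Actc1 and markers at 0) were chosen after their values were seen.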

Additional observations from a re-analysis of the deposited data

How the results depend on the processing

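FLICs against ES cells held for 7 of the 8 higher genes and Des under every alternative without OHT, and for 7 and Des with OHT. The exceptions are Cnn1 without OHT and Lmod1 with OHT. Leaving out 1 ES cell library gave 5375 to 12025 genes called and 1 to 2 contractile genes lower without OHT, and 1 to 2 lower with OHT. OHT in ES cells was unstable. Against 83 genes called, there were 371 with DESeq2, 262 without a count filter, 46 with 5 CPM in 2 libraries, 148 with ES cell libraries only and 18 to 6165 without 1 library. Contractile genes called higher were 4 with DESeq2, 2 without a filter and 0 to 8 without 1 library (lower, 0 to 1). Over the fits without 1 library, estimates changed sign for Actg2 (-0.38 to 1.02), Des (-0.026 to 0.11, below 0 also at -0.016), Cnn1 (-0.94 to 1.33), Myh11 (-0.73 to 1.14) and Lmod1 (-1.76 to 3.00). The interaction gave 20 genes with DESeq2 and 0 to 2804 without 1 library, with 0 to 3 contractile genes higher and 0 to 4 lower. Its sign changed for Cnn1 (-0.12 to 2.14), Actg2 (-0.24 to 1.16, below 0 also at -0.093), Myh11 (-1.31 to 0.56) and Lmod1 (-2.28 to 2.49). With 1 library left out, the lone sample is assumed to vary like the other pair. For OHT in FLICs, 62 genes passed the fold, against 112 with a pseudocount of 0.5 CPM, 8 with 5 CPM and 520 at 1.5-fold, with 1 contractile gene against 0 at 5 CPM and 5 at 1.5-fold. The summed level was 10421 CPM in FLICs with RLE, and 12977 CPM (total counts) and 12838 CPM (RLE) in FLICs with OHT. A CArG box with 1 base free was in 2 promoters against 1. The cause of these differences was not tested.

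With the replicate block, OHT in ES cells gave 1206 genes and 3 contractile genes higher, Acta2 (1.40, edgeR adjusted p = 0.0057), Tagln (1.69, adjusted p = 0.00067) and Myl9 (1.39, adjusted p = 0.00089), and the interaction gave 17 genes. Deviations of same-numbered ES cell libraries correlated at r = 0.345. The labels state no pairing and 2 pairs are too few to show one, so whether the numbers pair the libraries is unknown.

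Depth limits Myh11 in FLICs (10 and 12 counts) and Actg2 in ES cells (2 to 6 counts). The fit rests on 2 residual degrees of freedom, both from ES cells.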

Other observations

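Within the striated muscle list, whose genes were singled out after their values were seen, calls in untreated FLICs went both ways. Acta1, Actc1, Tnnt2, Tnnc1 and Nkx2-5 were called higher. Actc1 passed the count filter only with the FLICs libraries present, so its call rests on that selection. How reads shared between actin genes were assigned is not known, so the Acta1 and Actc1 values stay uncertain here too. Nkx2-5, a cardiac transcription factor, was at 0.463 and 0.452 CPM in untreated ES cells, 1.37 and 1.29 CPM with OHT, and 11.7 CPM in each FLICs library. Its log2 fold change without OHT was 4.66 (SE 0.26, edgeR adjusted p = 9.8e-05). Tnnt2, cardiac troponin T, was at 0.132 and 0.133 CPM, 0.406 and 0.588 CPM, 9.20 CPM and 6.27 CPM in the same order. Among the genes called lower, Ttn, the titin gene, fell by 5.74, from 63.5 and 68.7 CPM in untreated ES cells to 1.23 CPM in untreated FLICs, and Myh6 fell by 5.22. Mylpf, a fast skeletal light chain, was at 289 and 300.1 CPM in untreated ES cells and at 0.463 CPM in untreated FLICs. Of the 16 genes of the list that were tested, 5 were called higher and 7 lower, against 26.2% and 28.7% of all genes.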
